A study of Sus scrofa with 8 samples.

Results

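The antimicrobial and secretory immune defence genes *LYZ*, *DEFB1*, *PIGR*, *LTF*, *BPI*, *REG3G*, *PGLYRP1*, *PGLYRP2*, *DMBT1* and *FCN1*, were followed across the jejunum of suckling and weaned piglets. They were taken as a list of 10 symbols out of the 3216 symbols that the array's RefSeq accessions lead to. Each gene is represented by its brightest probe, the one with the highest mean log2 processed intensity over the 8 arrays, and all 10 had a probe. The suckling group held 4 Duroc × Landrace piglets aged 25 days that had stayed with the sow. The weaned group held 4 piglets of the same cross and age that had been taken off the sow at 21 days and moved to nursery pens, where they ate a basal diet freely (crude protein 20.50%, digestible energy 14.48 MJ/kg). Each group held 1 piglet from each of 4 litters, and no label says which array came from which litter. Loss of milk, the solid diet and the change of pen came together in this group and cannot be told apart. Each array held the RNA of 1 piglet, from a piece of mid-jejunum about 2 cm long, rinsed and frozen. In such a mixed tissue, fewer cells of a type and less RNA per cell cannot be told apart.

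The gut surface is defended by proteins that epithelial cells, and above all the Paneth cells at the crypt base, secrete into the lumen, and by granule proteins that neutrophils and monocytes carry. Some break or pierce bacteria, some bind their wall components or withhold iron, and the polymeric immunoglobulin receptor carries IgA made by plasma cells through the epithelium. In the suckling animal, milk itself supplies lactoferrin and IgA, a supply that ends at weaning. The data below are transcript signals of the piglet's own tissue.

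All values are log2 signals from which the 75th percentile of their array was subtracted, so 0 marks that percentile. They can be compared between arrays for 1 gene, but not between genes, because probes differ in brightness for the same amount of RNA. The 75th percentile was an intensity of 245 in suckling replicate 1 and between 317 and 395 on the other 7 arrays, and 67.6% to 71.0% of probes per array were well above background. Suckling replicate 1 resembled weaned replicate 1 more than any suckling array (r = 0.978 across probes, which are not independent). Suckling replicate 3 and weaned replicate 3 were likewise each closest to the other (r = 0.983). Arrays with the same replicate number also held the same position on their slides, and the part of position in this likeness was not tested. Enterocyte markers were present: the 7 of 14 that had a tested probe were well above background on all 8 arrays. Their summed signal, in multiples of the 75th percentile, was 551 in suckling replicate 1, 2299 to 3280 in the other suckling arrays and 932 to 1974 in weaned arrays. Summed signals of 5 crypt and dividing-cell markers were highest in suckling replicate 1, at 61.9, against 19.8 to 30.1 in the other suckling arrays and 35.9 to 58.8 in weaned arrays. Bright probes weigh most in such sums, which are therefore no even measure of a cell type. The suckling arrays all lay on 1 slide and the weaned arrays on the other, each with its own scan, so slide and weaning cannot be told apart in any difference below.

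None of the 10 genes passed the threshold, a limma adjusted p (Benjamini-Hochberg over all 30554 tested probes) under 0.05. Over all tested probes 0.177% passed it, 0.173% as higher and 0.00327% as lower in weaned piglets, so a count of 0 among 10 genes is near the background. At an unadjusted p under 0.05, 4 of the 10 were higher in weaned piglets and none was lower, where 7.75% of all tested probes were higher and 4.58% lower. Those 4 were *FCN1*, *BPI*, *LYZ* and *REG3G*. For *FCN1*, *BPI* and *LYZ*, all 4 weaned values lay above all 4 suckling values, which held for 4.93% of tested probes; no member had all weaned values below (2.83% of probes). The mean was higher after weaning in 7 of the 10 genes and lower in 3, where 54.9% of all tested probes had a higher mean. The median log2 difference of the 10 genes was 0.49 against 0.039 over all tested probes. The 10 genes were listed with earlier results of these data known, so these counts describe them and test nothing about them as a set.

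**Figure D1:**
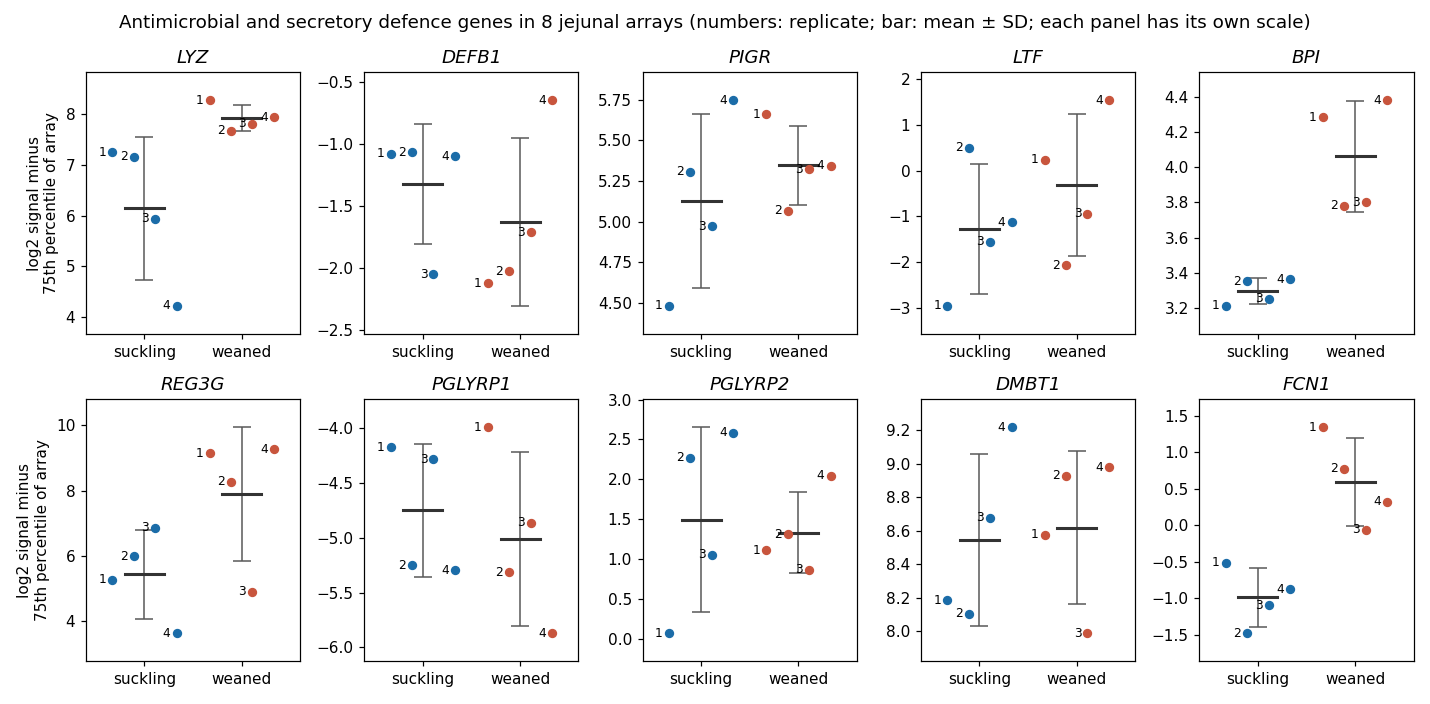
Log2 signal of the 10 genes relative to the 75th percentile of each array, by group. Points are single piglets numbered by replicate, horizontal bars are means and whiskers SD (n = 4); *LYZ*, *BPI* and *FCN1* show no overlap between the groups, and weaned replicate 3 is the lowest weaned point of *REG3G* at 4.91.

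*LYZ* encodes lysozyme, the enzyme that cleaves the peptidoglycan of bacterial walls and a main product of Paneth cells. Its log2 signal was 7.25, 7.16, 5.94 and 4.22 in suckling replicates 1 to 4 and 8.27, 7.68, 7.81 and 7.94 in weaned replicates 1 to 4. The groups did not overlap, and the suckling piglets were spread widely while the weaned ones lay close together. The suckling mean of 6.15 ± 1.41 and the weaned mean of 7.93 ± 0.26 (SD, n = 4 per group) were 3.43-fold apart. The difference of 1.78 had an SE of 0.60 and a 95% interval from 0.43 to 3.13 (limma adjusted p = 0.297). Suckling replicate 4 was the lowest array, and without it the difference was 1.14.

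The other probes of *LYZ* gave the same picture. The 3 probes differed by 1.78, 1.90 and 2.05 between the groups, and in each the weaned arrays lay above every suckling array. Their suckling SD lay between 1.39 and 1.42. On all 3 the lowest value was that of suckling replicate 4, from 3.45 to 4.22. The 3 probes read the same RNA samples, so their agreement bears on the probe and not on the number of piglets.

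*REG3G* encodes a secreted lectin of the gut epithelium that binds and kills Gram-positive bacteria. It had the largest mean difference and the widest spread of the 10 genes. Its signal was 5.27, 5.98, 6.86 and 3.64 in suckling replicates 1 to 4 and 9.13, 8.26, 4.91 and 9.26 in weaned replicates 1 to 4. Of the weaned piglets, 3 lay above every suckling piglet, and replicate 3 lay within the suckling range. The means were 5.44 ± 1.36 and 7.89 ± 2.04 (SD, n = 4 per group), a difference of 2.45 with an SE of 1.01. The 5.47-fold difference had a 95% interval from 1.13-fold to 26.5-fold (limma adjusted p = 0.374). Without weaned replicate 3 the difference was 3.44 and the groups did not overlap; without suckling replicate 4 it was 1.85.

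*REG3G*, *LTF* and *LYZ* were the 3 members with the largest range over the 8 arrays, at 5.61, 4.50 and 4.05. The low end of the *LTF* range was suckling replicate 1, where the spot was only 1.625 times as bright as its surroundings. The median range over all tested probes was 0.97, and 0.403%, 0.91% and 1.34% of probes had a range at least as wide. In *LYZ* the spread lay in the suckling group, in *REG3G* and *LTF* in both groups.

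*DEFB1* stands for a beta-defensin, a small cationic peptide that disrupts microbial membranes. According to RefSeq, 2 separate porcine gene entries carry this symbol, and the brightest probe belongs to the entry with the synonym PBD-2, not to the one with the synonym PBD-1. The PBD-2 probe read -1.08, -1.07, -2.05 and -1.10 in suckling replicates 1 to 4 and -2.13, -2.03, -1.71 and -0.65 in weaned replicates 1 to 4. Values of both groups were interleaved, with suckling replicate 3 down among the weaned arrays and weaned replicate 4 highest of all. The difference was -0.30 (SE 0.36, 95% interval -1.12 to 0.51, limma adjusted p = 0.771). The PBD-1 probe was dimmer, well above background on 6 arrays, with means of -4.79 ± 0.28 and -4.98 ± 0.44 (SD, n = 4 per group). Its difference was -0.20 (SE 0.24, limma adjusted p = 0.782), so neither entry showed a difference beyond the spread between piglets.

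*BPI* encodes the bactericidal/permeability-increasing protein, which binds the lipopolysaccharide of Gram-negative bacteria and is known from neutrophil granules and from epithelium. Its signal was 3.21, 3.35, 3.25 and 3.36 in suckling replicates 1 to 4 and 4.28, 3.78, 3.80 and 4.38 in weaned replicates 1 to 4. The groups did not overlap, and the suckling values were within a narrow band. The means were 3.29 ± 0.075 and 4.06 ± 0.32 (SD, n = 4 per group), a 1.70-fold difference. On the log2 scale this was 0.77, with an SE of 0.18 and a 95% interval from 0.36 to 1.17 (limma adjusted p = 0.167). The second *BPI* probe also separated the groups, with a difference of 0.84 (SE 0.21, limma adjusted p = 0.20). With each array left out in turn the difference stayed between 0.66 and 0.86, the narrowest such range among the members with an unadjusted p under 0.05.

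*LTF* encodes lactoferrin, the iron-binding protein of milk and of neutrophil granules. It read -2.95, 0.51, -1.55 and -1.13 in suckling replicates 1 to 4 and 0.24, -2.07, -0.94 and 1.54 in weaned replicates 1 to 4. The probe was well above background on all arrays, but its spot in suckling replicate 1 was dim, so that value is poorly resolved. The groups overlapped widely, with suckling replicate 2 and weaned replicate 4 the highest of their groups. The means were -1.28 ± 1.43 and -0.31 ± 1.55 (SD, n = 4 per group), and the difference of 0.97 had a 95% interval from -0.99 to 2.94 (limma adjusted p = 0.688). It was 0.36 without weaned replicate 4 and 0.42 without suckling replicate 1, while leaving out suckling replicate 2 gave 1.57 and leaving out weaned replicate 2 gave 1.56. The second *LTF* probe was well above background on 3 arrays, namely suckling replicate 2 and weaned replicates 1 and 4, and was not tested.

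**Figure D2:**
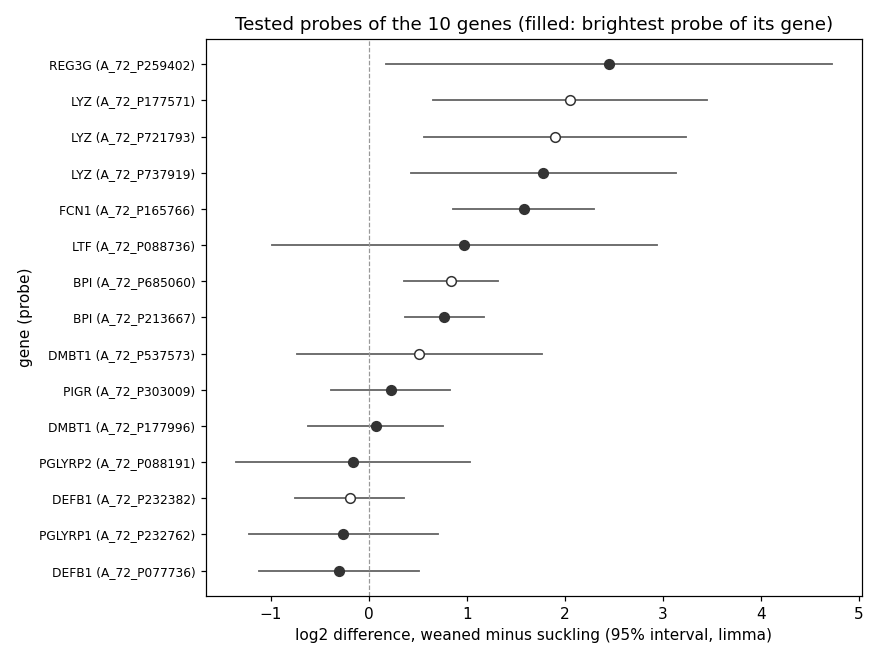
Log2 difference, weaned minus suckling, for the 15 tested probes of the 10 genes, with 95% intervals from the limma fit. Filled points mark the brightest probe of each gene; the intervals of all probes of *LYZ*, *BPI*, *FCN1* and *REG3G* lie above 0, and those of the other genes include 0.

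*FCN1* encodes a ficolin, a pattern-recognition lectin of monocytes and neutrophils that binds acetylated sugars and can start the lectin pathway of complement. It had the smallest p of the 10 genes. The signal was -0.51, -1.48, -1.09 and -0.87 in suckling replicates 1 to 4 and 1.34, 0.77, -0.06 and 0.32 in weaned replicates 1 to 4. Every weaned value lay above every suckling value, and weaned replicate 3 was the closest to the suckling group. The means were -0.99 ± 0.40 and 0.59 ± 0.60 (SD, n = 4 per group), 2.99-fold apart. The difference of 1.58 had an SE of 0.32 and a 95% interval from 0.86 to 2.30 (limma adjusted p = 0.122).

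Of the 8 runs that each left out 1 array, *FCN1* passed the threshold in the one without suckling replicate 1 (difference 1.74, limma adjusted p = 0.0455), in which 1.82% of all tested probes passed. It also passed when arrays were weighted by their quality (difference 1.79, limma adjusted p = 0.0366), where 1.07% of probes passed. In the remaining leave-one-out runs its difference lay between 1.33 and 1.80 and did not pass. No other member passed in any run. *FCN1* has 1 probe on the array, so its value has no second reading. The related ficolin gene *FCN2* read 9.31 ± 0.32 in suckling and 9.11 ± 0.20 in weaned piglets (SD, n = 4 per group; limma adjusted p = 0.717), and whether the probes also take up RNA of the other gene was not tested.

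The peptidoglycan recognition proteins bind bacterial wall fragments. *PGLYRP1*, a granule protein, lay close to background: it was well above background on 3 suckling and 2 weaned arrays, and its spot was at most 1.57 times as bright as its surroundings. Its signal ran from -5.30 to -4.17 in suckling and from -5.87 to -3.99 in weaned piglets, with the groups interleaved. The difference was -0.26 (95% interval -1.22 to 0.70, limma adjusted p = 0.839), and at this brightness small differences are not resolved.

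*PGLYRP2*, an amidase that cuts peptidoglycan, was well above background on all 8 arrays. It read 0.07, 2.27, 1.05 and 2.58 in suckling replicates 1 to 4 and 1.11, 1.31, 0.86 and 2.04 in weaned replicates 1 to 4. Suckling replicates 2 and 4 were the highest arrays and suckling replicate 1 was the lowest, so the suckling group enclosed the weaned one. The difference was -0.16 (SE 0.53, 95% interval -1.36 to 1.03, limma adjusted p = 0.926). It was -0.64 without suckling replicate 1 and 0.20 without suckling replicate 4. The second *PGLYRP2* probe was well above background on 2 suckling arrays, replicates 2 and 4, and on no weaned array, and was not tested.

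*DMBT1* encodes a large secreted scavenger-receptor glycoprotein of mucosal surfaces that binds and clumps bacteria. It read 8.19, 8.11, 8.68 and 9.22 in suckling replicates 1 to 4 and 8.58, 8.93, 7.99 and 8.98 in weaned replicates 1 to 4. The groups overlapped over nearly their whole range, and the difference was 0.072 (95% interval -0.62 to 0.76, limma adjusted p = 0.943). No spot of this probe was saturated, although its intensity reached 203000. The second *DMBT1* probe had a wider spread in suckling piglets, with its lowest value of 2.54 in replicate 1, and a difference of 0.51 (SE 0.55, limma adjusted p = 0.747).

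*PIGR* encodes the receptor that carries dimeric IgA across the epithelium and is shed with it as secretory component. It read 4.48, 5.31, 4.97 and 5.75 in suckling replicates 1 to 4 and 5.66, 5.07, 5.32 and 5.34 in weaned replicates 1 to 4. All weaned values lay within the suckling range, whose low end was suckling replicate 1. The means were 5.13 ± 0.53 and 5.35 ± 0.24 (SD, n = 4 per group). The difference of 0.22 had a 95% interval from -0.38 to 0.83, that is from 0.767-fold to 1.77-fold (limma adjusted p = 0.777), and it was 0.0066 without suckling replicate 1 and 0.43 without suckling replicate 4.

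Single arrays marked the extremes of several members at once. Suckling replicate 1 was the lowest of all 8 arrays in 4 of the 10 genes, *PIGR*, *LTF*, *BPI* and *PGLYRP2*. Suckling replicate 4 was lowest for *LYZ* and *REG3G* but highest for *PIGR*, *PGLYRP2* and *DMBT1*. Weaned replicate 4 was highest for 4 genes, *DEFB1*, *LTF*, *BPI* and *REG3G*, and weaned replicate 1 for 3, *LYZ*, *PGLYRP1* and *FCN1*. Weaned replicates 2 and 3 were each the lowest weaned array in 4 genes. No array was the highest or the lowest for all 10 genes.

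**Figure D3:**
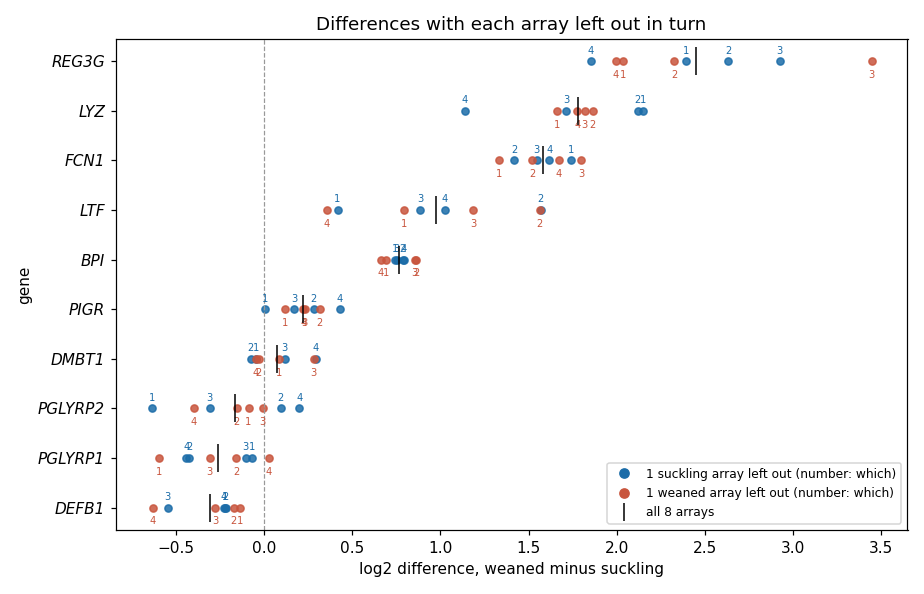
Log2 difference, weaned minus suckling, of the 10 genes with each array left out in turn; the number names the array left out, blue for suckling and red for weaned, and the black tick is the value with all 8 arrays. *BPI* stays between 0.66 and 0.86 and *FCN1* between 1.33 and 1.80. *LYZ* falls to 1.14 without suckling replicate 4, and *PGLYRP2*, *PGLYRP1* and *DMBT1* change sign.

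By likeness of profile (the root-mean-square difference between log2 profiles over the 8 arrays, each centred on its own mean, among 2763 named genes), *REG3G* was nearest to *GPX2*, a glutathione peroxidase of the gut epithelium, at 0.86. *CD274*, an inhibitory ligand of T cells, came next, followed by *NOS2*, the inducible nitric oxide synthase, at 1.23. For comparison, the *REG3G* profile itself deviated from its mean by 1.94. *GPX2* shared the low value of weaned replicate 3, at -0.57 against 0.81 to 2.00 in the other weaned arrays. Nearest to *LYZ* were *HK2*, a hexokinase, at 0.54, *CELA2A*, an elastase, at 0.60 and *CHRM1*, a muscarinic receptor, at 0.69. Like *LYZ*, all 3 were lowest in suckling replicate 4. *HK2* lay close to background, from -6.21 in that array to -3.17. It was well above background on 3 suckling and 4 weaned arrays, so its low value is poorly resolved. Nearest to *LTF* were *RDH16* (0.60), *PLBD1* (0.90) and *MSMB* (0.93), each highest in weaned replicate 4. *RDH16* was dim as well, from -5.40 to -1.54, though well above background on all 8 arrays. None of these 9 genes passed the threshold with all 8 arrays. They were the closest of many candidates over 8 arrays, so the distances describe these piglets.

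Members made by blood cells or Paneth cells can vary with the number of those cells, and marker genes give a partial view. Of 13 macrophage and dendritic cell markers, 7 were tested, and all 7 had a higher mean in weaned piglets, as had 54.9% of all tested probes. Their summed signal ran from 62.2 to 85.5 in suckling and from 75.7 to 106.6 in weaned piglets. *FCER1G* and *AIF1* separated the groups, 2 of 7 against 4.93% of all tested probes, and *CD14* overlapped at 1 array. None passed the threshold. Of 11 neutrophil markers, 5 were tested, 3 higher and 2 lower, with sums from 4.41 to 12.1 and from 3.80 to 13.1. These sums came mostly from the 2 brightest probes, those of *MMP9* and *ELANE*. Of the neutrophil genes, *S100A12* was well above background on all 8 arrays, *S100A8* on 7 and *S100A9* on 4, and each of them overlapped between the groups. Of the Paneth cell markers besides *LYZ*, *ITLN2* alone had a tested probe, at 6.16 ± 0.73 and 6.56 ± 0.30 (SD, n = 4 per group; limma adjusted p = 0.678). The part of cell numbers in the *LYZ*, *BPI* and *FCN1* values was not tested.

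The other genes of mucosal defence were counted in 6 lists. None of their tested genes passed the threshold, against 0.177% of all probes. For the counts and medians below, 54.9% of all tested probes had a higher mean, and their median difference was 0.039. Among other antimicrobial peptides and proteins 18 of 46 were tested, 10 with a higher and 8 with a lower mean, and the median difference was 0.29. The smallest p belonged to *HAMP*, the iron-regulating peptide hepcidin, at -2.36 ± 0.27 and -1.27 ± 0.77 (limma adjusted p = 0.287), and to *ANG*, a ribonuclease with antimicrobial activity, at 2.23 ± 0.66 and 3.18 ± 0.39 (SD, n = 4 per group; limma adjusted p = 0.315). *HAMP* did not overlap between the groups, 1 of the 18 tested genes, which is near the 4.93% of all tested probes. The unadjusted p was under 0.05 for 4 higher genes and 1 lower gene of these 18, against 7.75% of all tested probes higher and 4.58% lower. The median of this list was 0.064 with another background correction (normexp with outlying backgrounds replaced).

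In the route of secretory IgA, which *PIGR* completes, 18 of 33 genes were tested, 10 higher and 8 lower, with a median of 0.062. *CCL28*, a chemokine that draws IgA plasma cells to mucosa, read -0.24 ± 0.58 in suckling and 0.63 ± 0.53 in weaned piglets (SD, n = 4 per group; limma adjusted p = 0.357). *FCGRT*, the neonatal Fc receptor that carries IgG, read 6.89 ± 0.082 and 7.14 ± 0.18 (limma adjusted p = 0.514). None of the 18 separated the groups, which is near the background of 4.93% of probes higher and 2.83% lower.

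Among sensors and inducers of antimicrobial genes 17 of 32 were tested, 12 higher and 5 lower, with a median of 0.17. Of these 17 genes, 2 did not overlap between the groups, *TNF* and *IRF1*, against 4.93% of all tested probes. *TNF*, an early inflammatory cytokine, read from -1.12 to -0.48 in suckling and from -0.11 to 0.59 in weaned piglets, a difference of 0.92 (SE 0.21, limma adjusted p = 0.151). *IRF1*, an interferon-responsive transcription factor, differed by 0.35 (SE 0.15, limma adjusted p = 0.402). *IL1B* differed by 1.32 (SE 0.50, limma adjusted p = 0.345), with suckling replicate 1 lowest at -2.87. *IL17A* and *IL23A*, cytokines of the pathway that induces epithelial antimicrobials, gave no signal well above background in any of the 8 piglets.

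Among genes that handle peptidoglycan and lipopolysaccharide 6 of 17 were tested, 4 higher and 2 lower, with a median of 0.22. *CD14*, the lipopolysaccharide co-receptor also counted as a macrophage marker, read from -1.17 to -0.44 in suckling and from -0.63 to 0.77 in weaned piglets (limma adjusted p = 0.357). *LY96*, the partner of TLR4, differed by 0.16 (SE 0.24, limma adjusted p = 0.824). *PGLYRP3*, of the same family as *PGLYRP1* and *PGLYRP2*, differed by -0.17 (SE 0.32, limma adjusted p = 0.859).

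Of the lectin pathway and complement, into which *FCN1* feeds, 24 of 37 genes were tested, 21 with a higher mean and 3 with a lower one, and the median was 0.24. Over all tested probes 54.9% had a higher mean. The pore protein *C9* read 4.20 ± 0.40 and 4.71 ± 0.21 (SD, n = 4 per group; limma adjusted p = 0.394). *MBL1* and *MBL2*, lectins that share the pathway with *FCN1*, gave no signal well above background in any of the 8 piglets.

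Of mucus and goblet cell genes 5 of 18 were tested, 4 higher and 1 lower, with a median of 0.28. *SPDEF*, a transcription factor of goblet and Paneth cell maturation, averaged 1.23 ± 0.22 in suckling piglets (SD, n = 4) and read 2.86, 2.99, 1.25 and 2.24 in weaned replicates 1 to 4. As in *REG3G*, weaned replicate 3 was the array that fell among the suckling ones. The difference was 1.10 (SE 0.36, limma adjusted p = 0.283). *KLF4*, a transcription factor of goblet cells, differed by 0.28 (SE 0.20, limma adjusted p = 0.598).

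**Figure D4:**
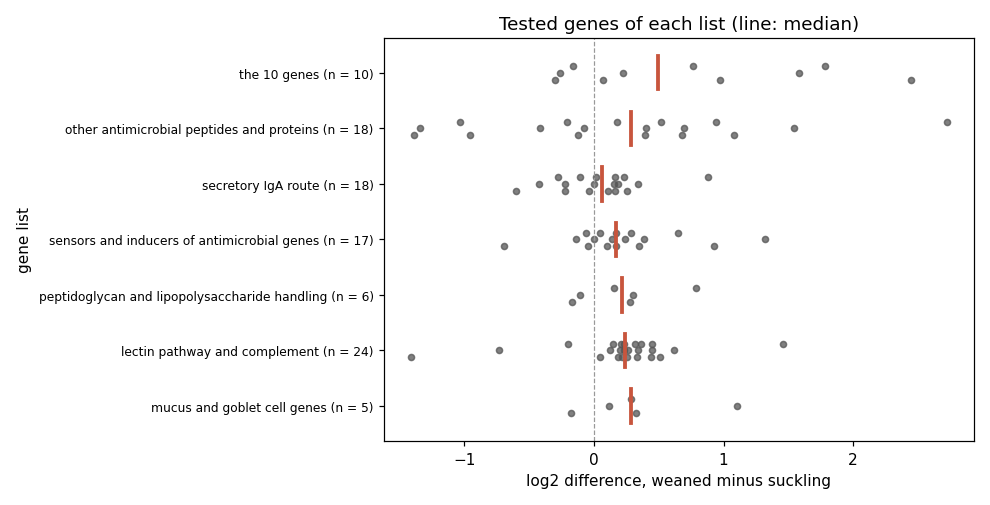
Log2 difference, weaned minus suckling, of every tested gene in the 6 lists and of the 10 genes; each point is 1 gene and the red line is the median of its list. The medians lie between 0.062 and 0.49, and no point passed the threshold.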

How the data were processed

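Jejunal RNA of 8 piglets, 4 suckling and 4 weaned, was measured on 1-colour Agilent arrays. Scans were read, per the file headers, with Agilent Feature Extraction 10.7, and the deposited files give a background-subtracted processed intensity, a median spot intensity and a local background per spot. The authors' deposited series table gives log2 values with a common median of 5.50; its scaling is not given in the sources used here.

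Control spots were left out, outlier spots set to missing, log2 intensities scaled to the 75th percentile of each array and spots of a probe averaged (43603 probes). Probes well above background on at least 4 arrays, with at least 3 values per group, were tested (30554) with limma 3.58.1 in R 4.3.3, with group as the only term. RefSeq accessions were named through the Sscrofa11.1 gene table, which gave 6924 probes a symbol. The array number limits precision. Members and lists were chosen with earlier results of these data known. Named genes are the 10 members, the 2 genes with the smallest p of each list without a call, and the 3 nearest profiles of the 3 detected members with the largest range. One result that this rule selects is not reported here. *FCN2*, *PGLYRP3*, *ITLN2*, *AIF1*, *FCER1G*, *IL17A*, *IL23A*, *IRF1*, *MBL1*, *MBL2*, *MMP9*, *ELANE* and the S100 genes were named after their values were seen. The fit was tested on simulated data with known changes and independent normal noise of equal spread in both groups. No slide effect or deviating array was simulated, so that test does not bear on either. Alternatives were other scalings, background corrections, filters, variance models, array weights, a replicate block, the deposited table, the mean over probes and each array left out.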

Additional observations from a re-analysis of the deposited data

Results flagged for a closer look

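A sample stood far from the other 3 of its group in 4 of 64 groups of 4 values examined, where chance gives about 3.2 (in brackets, the distance to its closest neighbour as a share of the group's whole range). *DEFB1* (PBD-2 entry) was low in suckling replicate 3, at -2.05 against -1.10 to -1.07 (0.966). *KLF4* was high in suckling replicate 4, at 1.48 against 0.74 to 0.86 (0.838), and *NOS2* in suckling replicate 3, at 1.71 against -0.59 to -0.36 (0.898). The 75th percentile of weaned replicate 1, on the log2 scale, was 8.31 against 8.58 to 8.61 in the other weaned arrays (0.925).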

How the results depend on the processing

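Over 20 alternative settings, 7 of the 10 members kept their direction throughout. The exceptions changed sign: with each array left out in turn *DMBT1* ranged from -0.076 to 0.29, *PGLYRP1* from -0.60 to 0.027 and *PGLYRP2* from -0.64 to 0.20, and *PGLYRP2* was 0.14 under normexp with an offset of 50. Members past the threshold numbered 0 to 1 with arrays left out in turn and 1 with array weights, in both cases *FCN1*. Members with an unadjusted limma p under 0.05 numbered 3 or 4 in every setting. Those with all weaned values above all suckling values numbered 2 under normexp with an offset of 50, 4 without weaned replicate 3, and 3 otherwise. Probes past the threshold numbered 9 to 553 with arrays left out in turn (553 without suckling replicate 1, 21 and 25 without suckling replicates 2 and 3, 40 without suckling replicate 4, and 10, 11, 20 and 9 without weaned replicates 1 to 4), against 54 with all arrays. They numbered 328 with array weights and 0 under normexp, where limma gave 251 at an unadjusted p under 0.05. That normexp run was distorted by single spots with a local background of 65246 in suckling replicate 4 and 17305 in weaned replicate 1, and it moved the median difference of all probes from 0.039 to -0.10. A run chosen after seeing the data, with the background of such spots replaced, gave 73 probes and no member (smallest limma adjusted p = 0.0667). With the replicate number as a block, 0 probes passed by limma (4194 at an unadjusted p under 0.05) and no member did. The numbers were not taken as pairs, because no label ties them to litters. Deviations of same-numbered arrays correlated at 0.37, 0.0076, 0.19 and -0.018. Arrays with different numbers were not compared in this way, and same-numbered arrays shared a slide position. These correlations therefore cannot decide whether the numbers are litter pairs. In the deposited table *TNF* passed, as 1 gene among sensors and inducers (difference 1.26, limma adjusted p = 0.0354). Under normexp, and in brackets with the background of outlying spots replaced, *FCN1* was 0.98 (1.23), *LTF* 0.51 (0.77), *CELA2A* 0.093 (0.46), *CD274* 0.42 (0.85), *HAMP* 0.37 (0.66), *RDH16* 0.14 (0.37) and *HK2* -0.054 (0.21). The median of the other antimicrobial genes was -0.027 (0.064) and that of the IgA route 0.028 (-0.014). *HK2* passed without suckling replicate 1 (1.84, limma adjusted p = 0.0461), *NOS2* passed without suckling replicate 3 (3.17, limma adjusted p = 0.0390), and *MSMB* ranged from -0.031 to 0.76 with arrays left out. The cause of these changes was not tested.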
